A study of Mus musculus with 12 samples.

Results

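Pdx1, Ptf1a, Gata4, Gata6, Foxa2, Sox9, Nr5a2 and Onecut1 encode 8 transcription factors that set and keep pancreatic cell identity, and their DNA copy number was read in a pair of primary murine PDAC (pancreatic ductal adenocarcinoma) lines. The 8 genes were taken by name from the gene column of the deposited segment tables, which held 22036 distinct gene names in the 2 lines, and each of the 8 was found in 1 segment of each line. The lines, 15376T and 14837T, came from tumors of C57BL/6 mice engineered to carry p48-Cre, ROSA26-LSL-rtTA-IRES-GFP and Trp53 L/+, and the labels give the genotype of both as WT. In these mice Cre is driven by the Ptf1a (p48) promoter, so that the alleles that need Cre are restricted to cells with a history of Ptf1a expression, and rtTA acts in the presence of doxycycline. Genomic DNA of the cultured cells, which per the study's methods were grown with doxycycline, was studied by whole-exome sequencing (WES), with a single library for each. The animals' ages are not given in the sources used here, and the RNA-seq samples and the wild-type tail DNA of the study were not analysed here.

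Pdx1 and Ptf1a are needed for the formation of the pancreas, and Foxa2, Gata4, Gata6, Sox9 and Onecut1 act with them in the early progenitors. In the adult organ Ptf1a and Nr5a2 maintain the digestive enzyme genes of acinar cells, Pdx1 is kept at its highest level in β cells, and Sox9 and Onecut1 mark the ducts. Loss of acinar identity is an early step of pancreatic tumors in mice, and GATA6 is used to tell classical from basal-like pancreatic tumors.

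Neighboring bins of common coverage were joined into segments, and the log2 of a segment is the log2 ratio of that coverage to a copy-number reference that is not named in the sources used here. The authors' integer copy numbers followed log2 thresholds of -0.25 for a loss and 0.2 for a gain, with 0 exceptions. Mean depth was 43.4 for 15376T and 47.5 for 14837T. As the tables hold no error for a segment and no replicate exists, the SD of log2 over the autosomal 2-copy segments served as the spread. It was 0.0898 over 103 segments of 15376T and 0.0953 over 96 segments of 14837T, and for a difference between the lines both were combined to 0.131. This is a spread between regions and not between repeat libraries, so no test between the lines could be made and no p-value is given. The 2-copy segments lie between -0.25 and 0.2 by definition, so the calls themselves limit this spread. Distances of lost or gained genes in units of it are therefore descriptive only. The spread between bins of a segment is unknown.

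The 8 genes fell into 3 kinds. Gata4 was called lost in both lines. Gata6 and Onecut1 were called lost in 15376T and at 2 copies in 14837T, and Pdx1 was at 2 copies in 15376T and gained in 14837T. Ptf1a, Foxa2, Sox9 and Nr5a2 were at 2 copies in both. In 15376T 3 of the 8 were lost, against 30.0% of all autosomal genes (all genes below), and 0 were gained, against 9.13%. In 14837T 1 was lost, against 28.8% of all genes, and 1 was gained, against 21.5%. Calls differed between the lines for 3 of the 8 genes, with 29.3% of all genes as the background, and 1 of the 8 was lost in both lines, with 22.4% of all genes as the background. With 8 genes, these counts lie near the genome-wide shares, and nothing is read from them about the set. The median log2 of the 8 was -0.050 in 15376T and -0.012 in 14837T, beside -0.023 and -0.045 over all genes.

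**Figure D1:**
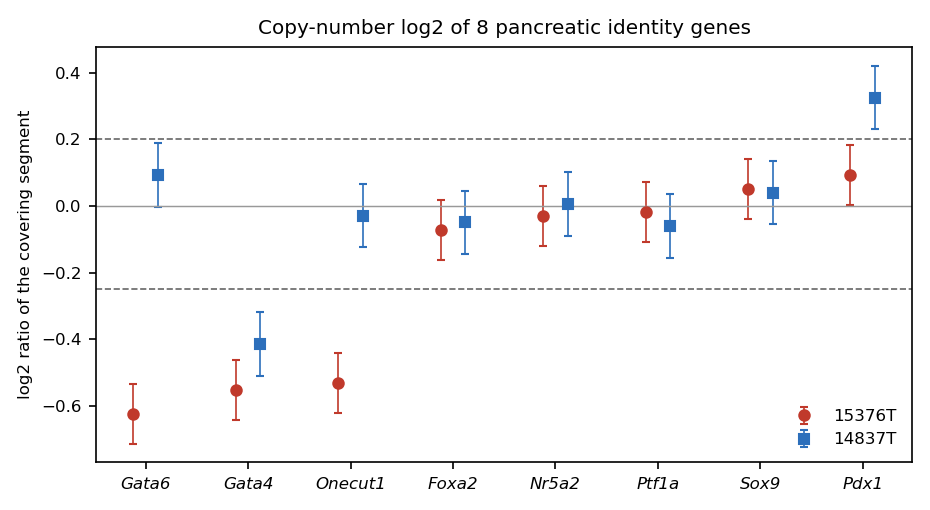
Log2 ratio of the segment that covers each of the 8 genes (vertical axis) in 15376T (circles) and 14837T (squares), ordered by the value in 15376T. Bars are the SD of log2 among segments at 2 copies in that line, and dashed lines mark the loss and gain thresholds of -0.25 and 0.2. Gata6, Gata4 and Onecut1 lie between -0.62 and -0.53 in 15376T, and in 14837T only Gata4 lies below the loss threshold and only Pdx1 above the gain threshold.

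Pdx1, a homeodomain factor of all pancreatic progenitors and later of β cells, lies on chromosome 5 (147270097 to 147275848, GRCm38). Its segment had a log2 of 0.094 in 15376T and 0.32 in 14837T. The first value is 0.106 below the gain threshold and the second is 0.125 above it. The difference of -0.23 between the lines came to -1.76 spreads of a difference, and 29.9% of all genes differed by at least as much. Both segments ended at the same position near the end of the chromosome, 4.46 Mb after the gene. The segment of 15376T was 18.4 Mb long with 2811 bins, whereas that of 14837T was 9.30 Mb long with 1191 bins. In 14837T it began 4.83 Mb before Pdx1, next to a stretch of 80 bins with a log2 of 0.056. Beyond that stretch lay another segment called gained, at 0.34 with 605 bins. Cdx2, the intestinal homeobox gene beside Pdx1, and Bhlha15, which encodes the acinar factor Mist1, shared the segment of Pdx1 in both lines. Thus the gained segment with Pdx1 covered a distal stretch with 117 named genes and not Pdx1 alone.

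Ptf1a, the basic helix-loop-helix factor that gives p48-Cre its name, lies on chromosome 2 (19445663 to 19447501). Its log2 was -0.017 in 15376T and -0.060 in 14837T, each within the spread of 0. The segments, 37.3 Mb and 74.8 Mb long, began at the same position at the start of the chromosome and held 4703 and 7575 bins. The B-allele fraction (BAF, the part of the reads at a variant site that carry the allele other than the reference) of the segment was 0.30 in 15376T and 0.19 in 14837T. In 15376T 84.4% of genes lay in segments with a lower BAF, and Ptf1a was the only one of the 8 genes that the authors called with 1 copy of each allele. Gata3 and Nr5a1 share that segment and its call, and Rbpj, Neurod1 and Pax6 were also called with 1 copy of each allele in 15376T. In 14837T Ptf1a was called with 2 copies of one allele and 0 of the other, as were Foxa2, Sox9, Nr5a2 and Onecut1. The median BAF of autosomal segments, weighted by length, was 0.077 in 15376T and 0.061 in 14837T. No loss of an allele is read from this call. The number of variant sites behind a BAF is not part of the tables. The segments describe the region around Ptf1a, and the tables give no depth for the gene itself in either line, so that the locus carrying the Cre could not be read on its own.

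Foxa2, a forkhead factor that opens chromatin in endoderm and acts upstream of Pdx1, also lies on chromosome 2 (148042877 to 148046969) but in other segments than Ptf1a. Its log2 was -0.071 in 15376T, in a segment of 19.6 Mb, and -0.049 in 14837T, in a segment of 83.1 Mb. The BAF was 0.13 and 0.21, the highest after that of Ptf1a among the 8 genes in 15376T and the highest of the 7 with a BAF in 14837T. Sox9, a factor of progenitors and ducts, lies on chromosome 11 (112782210 to 112787757) and had a log2 of 0.050 in 15376T and 0.040 in 14837T. The Sox9 segments, 20.1 Mb and 22.2 Mb long, began at the same position. Nr5a2, a nuclear receptor of acinar cells, lies on chromosome 1 (136842562 to 136960448) and had a log2 of -0.029 in 15376T and 0.0052 in 14837T. In 15376T its segment ran over 77.2 Mb, and in 14837T over 11.7 Mb between segments at -0.14 and -0.18. For Ptf1a, Foxa2, Sox9 and Nr5a2 the lines differed by 0.043, -0.022, 0.0097 and -0.035, all less than the spread of a difference. Differences at least as large were seen in 79.4%, 88.6%, 95.7% and 83.6% of all genes.

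Onecut1, also known as Hnf6, a cut-homeodomain factor of progenitors and ducts, lies on chromosome 9 (74861921 to 74889648). Its log2 was -0.53 in 15376T and -0.029 in 14837T. In units of the spread of each line, these values stood at -5.47 and 0.21 from the autosomal median. The difference of -0.50 came to -3.84 spreads of a difference, and 7.56% of all genes differed by at least as much. It corresponds to a ratio of 0.706 between the lines on the linear scale. In 15376T the segment was 25.8 Mb long with 3181 bins and was followed by a further lost segment at -0.61. With the other lost segments of the chromosome, 62.3% of its length was lost, compared with 1.89% in 14837T. In 14837T a segment of 39.2 Mb with 4801 bins covered the gene, and no border was shared. Tcf12, which encodes an E-protein partner of Ptf1a, shared the segment of Onecut1 in both lines.

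The promoters of Onecut1, Ptf1a and Pdx1 are shown as examples of GC content, the property set beside the depth of Onecut1 in what follows. They are the 250 bases before and 50 bases after the start of the gene in RefSeq GRCm38.p6. Promoters of 5 of the 8 genes were read. The dinucleotide CG is in capitals, searched on the strand shown (it reads the same on both).
Onecut1, chr9:74861671-74861970, + strand: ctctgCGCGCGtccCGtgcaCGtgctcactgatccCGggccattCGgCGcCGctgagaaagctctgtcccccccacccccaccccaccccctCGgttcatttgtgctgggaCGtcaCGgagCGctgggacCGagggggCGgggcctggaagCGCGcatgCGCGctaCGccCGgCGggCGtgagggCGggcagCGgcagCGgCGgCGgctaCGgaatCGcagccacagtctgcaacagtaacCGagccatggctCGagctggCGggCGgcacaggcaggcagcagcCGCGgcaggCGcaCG
Ptf1a, chr2:19445413-19445712, + strand: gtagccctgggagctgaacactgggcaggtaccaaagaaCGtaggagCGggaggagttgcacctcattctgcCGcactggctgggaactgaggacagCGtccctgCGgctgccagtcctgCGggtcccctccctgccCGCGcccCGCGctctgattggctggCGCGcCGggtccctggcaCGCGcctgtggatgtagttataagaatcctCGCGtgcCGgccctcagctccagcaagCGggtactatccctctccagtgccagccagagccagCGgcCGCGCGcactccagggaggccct
Pdx1, chr5:147269847-147270146, + strand: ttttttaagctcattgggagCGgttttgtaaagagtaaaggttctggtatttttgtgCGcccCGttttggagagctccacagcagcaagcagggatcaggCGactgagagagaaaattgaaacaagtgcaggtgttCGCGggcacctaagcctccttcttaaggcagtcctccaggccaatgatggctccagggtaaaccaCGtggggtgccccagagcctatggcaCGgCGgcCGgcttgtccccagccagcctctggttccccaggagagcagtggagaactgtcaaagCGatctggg
The Onecut1 promoter had a GC content of 73.0% and held the dinucleotide 38 times, more than 95.05% of 32851 promoters of the same length. That of Ptf1a had 67.3% GC and 23 CG, more than 78.5% of promoters, and that of Pdx1 had 55.3% GC and 11 CG, more than 58.6%. The median over all promoters was 52.7% GC and 7 CG. Of the promoters not shown, those of Foxa2 had 51.7% to 64.0% GC, and those of Nr5a2 had 42.0% and 49.0%.

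The gene tables give the depth over a gene's own bins, but only where the absolute log2 of its segment was 0.40 or more. Hence 3 of the 8 genes were listed in 15376T (Gata4, Gata6 and Onecut1) and 1 in 14837T (Gata4). Onecut1 had an own depth of 17.1 over 4 bins in 15376T, while the 269 other listed genes of its segment had a median of 35.5. On the log2 scale this is -1.05, where the SD over those genes was 0.54, and 3.72% of them were lower. All 10 of its nearest listed genes, 5 on each side, were deeper, from 21.5 to 70.6. The own depth has no reference, so it mixes the copies of a gene with how well its exons were captured. Across listed genes with a promoter in the table, the own depth relative to the segment was lower at higher promoter GC (Pearson r = -0.36, Spearman rho = -0.31 over 5347 genes in 15376T and r = -0.35, rho = -0.32 over 3434 genes in 14837T). This is a description across genes of 1 library, which are not independent and share depth and base composition. By rising quartile of promoter GC, the median log2 of own depth to segment depth was 0.45, 0.12, 0.069 and 0.040 in 15376T. In 14837T it was 0.45, 0.19, 0.089 and 0.071, so in each line the fall lay mostly between the lowest quartile and the next. For genes with a promoter GC of 70% or more the median log2 of own depth to segment depth was 0.032 (560 genes in 15376T), and 29 of them, Onecut1 included, were at or below its -0.97. The part of base composition in the low depth of Onecut1 was not tested.

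Gata4, a zinc-finger factor of early pancreatic and gut progenitors, lies on chromosome 14 (63198914 to 63271712). Its log2 was -0.55 in 15376T and -0.41 in 14837T, and both were called at 1 copy. In units of the spread they stood at -5.68 and -3.83 from the autosomal median of each line. The difference of -0.14 came to -1.04 spreads of a difference, and 48.3% of all genes differed by at least as much. Both segments ran to the same end of the chromosome, over 81.2 Mb with 5311 bins in 15376T and over 65.4 Mb with 3244 bins in 14837T. In either line the segment before it was also lost, at -0.59 and -0.31, and of the whole chromosome 86.4% and 100% of the length was lost. The depth of the segment, which uses no reference, was 31.3 in 15376T and 33.5 in 14837T. The median depth of 2-copy segments was 44.9 and 47.0, which gives a log2 of -0.52 and -0.49. The reference is not named, and its coverage in this region was not tested.

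The own depth of Gata4 was 18.9 in 15376T and 20.3 in 14837T, each over 7 bins. Listed genes of the same segment had a median depth of 36.0 (556 genes) and 39.4 (296 genes). Gata4 lay at -0.93 and -0.96 on the log2 scale against these medians, where the SD over the genes was 0.62 and 0.53, and 5.94% and 6.42% of the genes were lower. Of its 10 nearest listed genes 9 were deeper in each line, and Fam167a, at 18.9 and 19.8, was the exception in both. The own depth of Gata4 thus stood low among the genes of its segment in both lines. The log2 ratio of its own depth between the lines, -0.038, exceeded the segment difference by 0.098, less than the SD of 0.15 of this excess over 2008 genes with at least 5 bins.

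**Figure D2:**
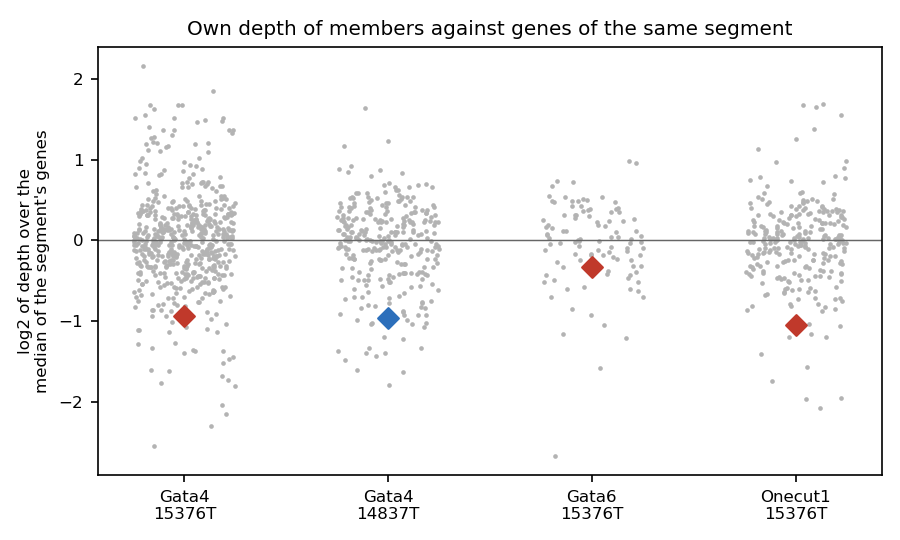
Own depth of Gata4, Gata6 and Onecut1 (diamonds) where they were listed, as log2 over the median depth of the listed genes of the same segment (vertical axis). Grey points are the other listed genes of that segment, spread sideways for legibility. Onecut1 and Gata4 lie near -1 in each column, and Gata6 lies at -0.33, inside the bulk of its neighbors.

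Gata6, the zinc-finger paralog of Gata4, lies on chromosome 18 (11052510 to 11085636) and showed the largest difference of the 8 genes. Its log2 was -0.62 in 15376T and 0.093 in 14837T. In 15376T 2.42% of all genes had a lower value. The difference of -0.72 came to -5.46 spreads of a difference, 1.84% of all genes differed by at least as much, and on the linear scale 15376T had 0.609 times the ratio of 14837T. The loss in 15376T lay in a segment of 28.3 Mb with 1498 bins, and 99.9% of the chromosome was lost. 14837T had lost 64.3% of the same chromosome, split into 11 segments, but not the part with Gata6.

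In 14837T Gata6 lay in a short segment. It was 1.63 Mb long, held 126 bins and 10 named genes, and its borders were 0.959 Mb before and 0.633 Mb after the gene. The segments on both sides had a log2 of -0.15 (369 bins) and -0.16 (449 bins), so that the stretch with Gata6 stood above its surroundings although all 3 were called at 2 copies. A log2 taken from the mean depth of the segment against the median depth of 2-copy segments gave 0.23, which lies above the gain threshold of 0.2, whereas the deposited log2 of 0.093 lies below it. No BAF was given for this segment. With 126 bins it was the smallest segment around any of the 8 genes, and the next smallest held 1187 bins. Further along the chromosome 14837T had other short segments that stood above both neighbors. One, 9.2 Mb after Gata6, had a log2 of 0.12 (140 bins) between segments at -0.16 and -0.13. Another, 20.4 Mb after Gata6, had 0.39 (141 bins) and was called at 3 copies. The rise at Gata6 was therefore not the only one on this chromosome. In 15376T the own depth of Gata6 was 27.3 over 8 bins, against a median of 34.4 over 103 listed genes of the segment, or -0.33 on the log2 scale with an SD of 0.53, and 22.3% of those genes were lower. Of its 10 nearest listed genes 8 were deeper.

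**Figure D3:**
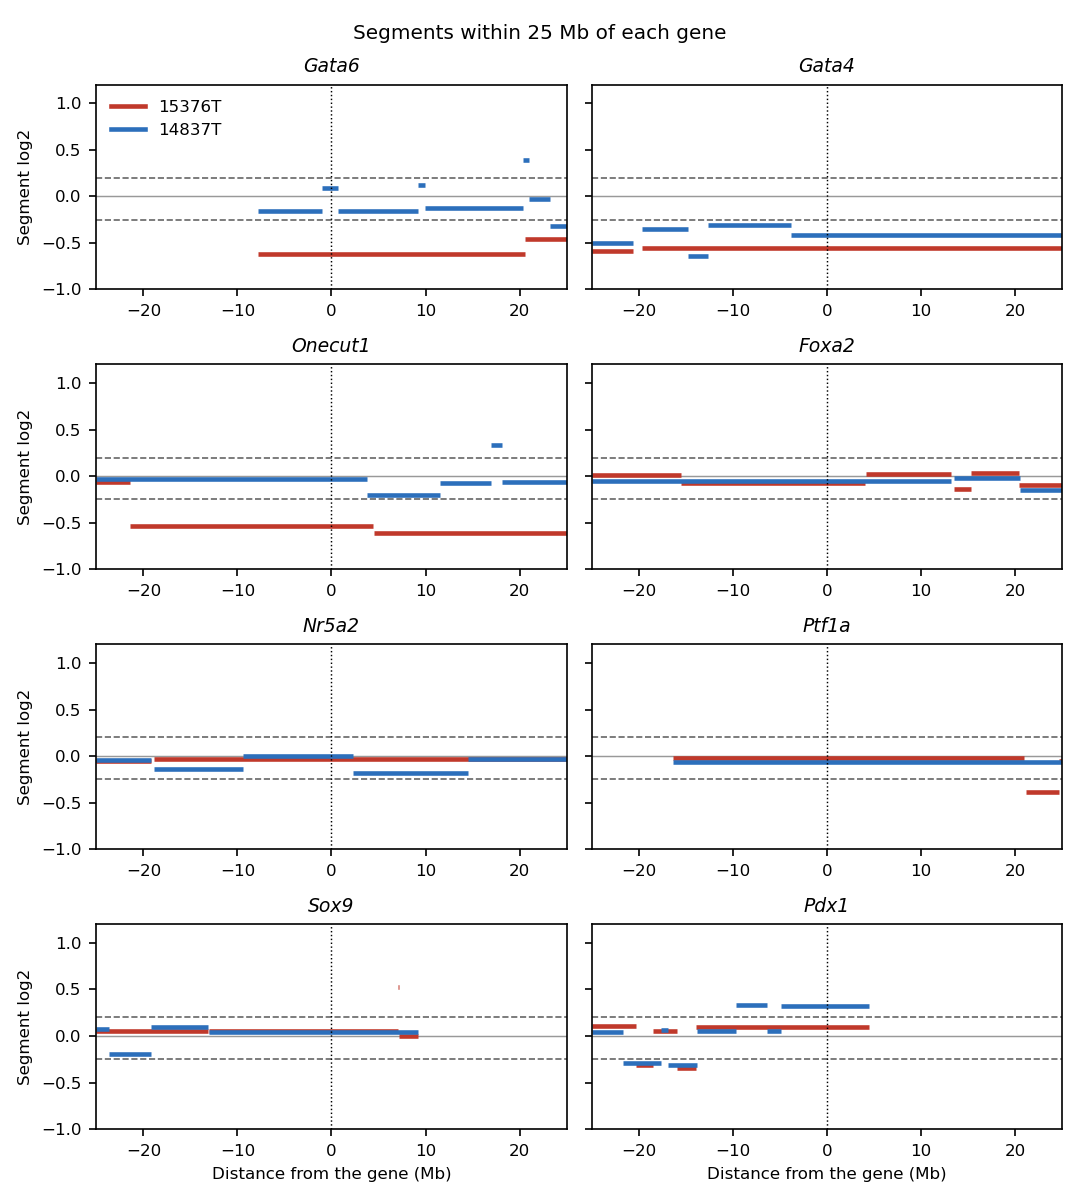
Log2 of the segments (vertical axis) within 25 Mb on each side of the 8 genes, by distance from the gene in Mb (horizontal axis), in 15376T (red) and 14837T (blue), with values above 1.2 drawn at 1.2. Dashed lines mark the thresholds of -0.25 and 0.2. The short raised segment of 14837T around Gata6 stands between segments at -0.15 and -0.16, and other short raised segments follow it. The loss around Gata4 extends over the full window in both lines.

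No member was cut by a segment border, and no 2 of them shared a segment. One border of the segment was the same in both lines for Pdx1, Ptf1a, Gata4 and Sox9, and for Gata6, Foxa2, Nr5a2 and Onecut1 none was. The median absolute difference between the lines was 0.089 over the 8 genes, beside 0.123 over 20952 genes measured in both. The order of the 8 genes by log2 in 15376T ran from Gata6, Gata4 and Onecut1 at -0.62 to -0.53, through Foxa2, Nr5a2, Ptf1a and Sox9 to Pdx1 at 0.094, and neighbors in this order differed by less than the spread except Onecut1 and Foxa2. In 14837T Gata4 stood alone at the low end and Pdx1 at the high end, each apart from its neighbor in the order by more than the spread, and the 6 genes between them, from Ptf1a to Gata6, lay nearer to each neighbor than that.

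**Figure D4:**
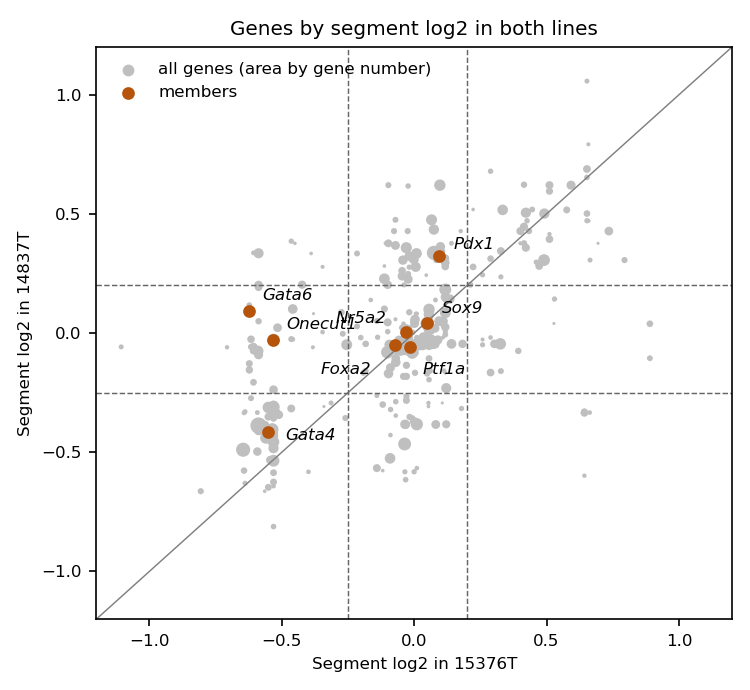
Segment log2 of all genes (grey, area growing with the number of genes at a pair of values) and of the 8 genes (brown) in 15376T (horizontal axis) and 14837T (vertical axis), with the line of equal values and the call thresholds. Values beyond 1.2 in size are not drawn. Gata6 and Onecut1 lie left of the other members above the loss threshold of 14837T, and Gata4 lies near the line of equal values.

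The copy number of other pancreatic transcription factors was compared by role, from a list of 35 genes. In 15376T 34 of them were found in 1 segment, of which 4 were lost, 29 were at 2 copies and 1 was gained. In 14837T 33 were found in 1 segment, of which 5 were lost, 22 were at 2 copies and 6 were gained. Mafa was not found in the gene column, and Isl1 lay in 2 segments of 14837T. Of the 33 genes with a value in both lines, 21 were at 2 copies in both, 8 had a different call, 3 were lost in both and 1 was gained in both. The median absolute difference of these genes was 0.077. Of all genes, 30.0% were lost and 9.13% gained in 15376T, and 28.8% and 21.5% in 14837T. Calls differed for 29.3% of all genes, and 22.4% were lost in both lines. Among the 20952 genes measured in both, 8685 were at 2 copies in both lines and 1439 were gained in both. Several genes of the list share a segment, and nothing is read from the counts by role.

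Among the paralogs of the members, 2 of 10 were lost and 1 was gained in 15376T, and 3 were lost and 3 gained in 14837T. The shares of all genes were 30.0% lost and 9.13% gained in 15376T, and 28.8% and 21.5% in 14837T. Foxa3, the paralog of Foxa2 known from liver, was at -0.54 and -0.42, and Onecut2 at -0.56 and -0.44, so both were lost in both lines. Onecut3 was at 0.010 in 15376T and at -0.38 in 14837T, and was called lost in 14837T alone. Foxa1, which acts redundantly with Foxa2 in the pancreas, was at 0.12 and 0.31, and Sox8 at 0.074 and 0.34, both gained in 14837T. Sox10, a neural crest factor, was at 0.49 and 0.31 and was gained in both. Gata2, Gata3, Gata5 and Nr5a1 were at 2 copies in both lines.

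Among the partners of Ptf1a, Rbpj and Rbpjl were at 2 copies in both lines. Of the E-proteins with which Ptf1a dimerizes, Tcf12 was lost in 15376T (-0.53, beside -0.029 in 14837T), and Tcf3, which encodes E12 and E47, was lost in 14837T (-0.38, beside 0.010). Each line had a call of loss at 1 of these 4 genes, in different E-protein genes. Of all genes, 30.0% were lost in 15376T and 28.8% in 14837T. Tcf3 and Onecut3 shared a segment, as did Tcf12 and Onecut1, so these values are not separate measurements. Of 4 acinar factors 0 were lost in either line, and 1, Bhlha15 in the segment of Pdx1, was gained in 14837T. With so few genes, nothing is read from these counts.

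Of 5 progenitor and duct factors, Hes1, the Notch target that holds progenitors undifferentiated, was lost in both lines at -0.65 and -0.49. Hhex, a homeobox gene of the early ventral pancreas and ducts, was at 0.065 in 15376T and at 0.48, called gained, in 14837T. Prox1 and Mnx1 were at 2 copies in both. Of the endocrine factors, all 11 with a value in 15376T and 9 of 10 in 14837T were at 2 copies, and Rfx3, a regulator of cilia and islet cells, was gained in 14837T at 0.36, beside -0.030 in 15376T. Neurog3, Neurod1, Pax6 and Nkx6-1 were among those at 2 copies in both lines. For all genes, 12807 of 21056 were at 2 copies in 15376T and 10460 of 21019 in 14837T.

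**Figure D5:**
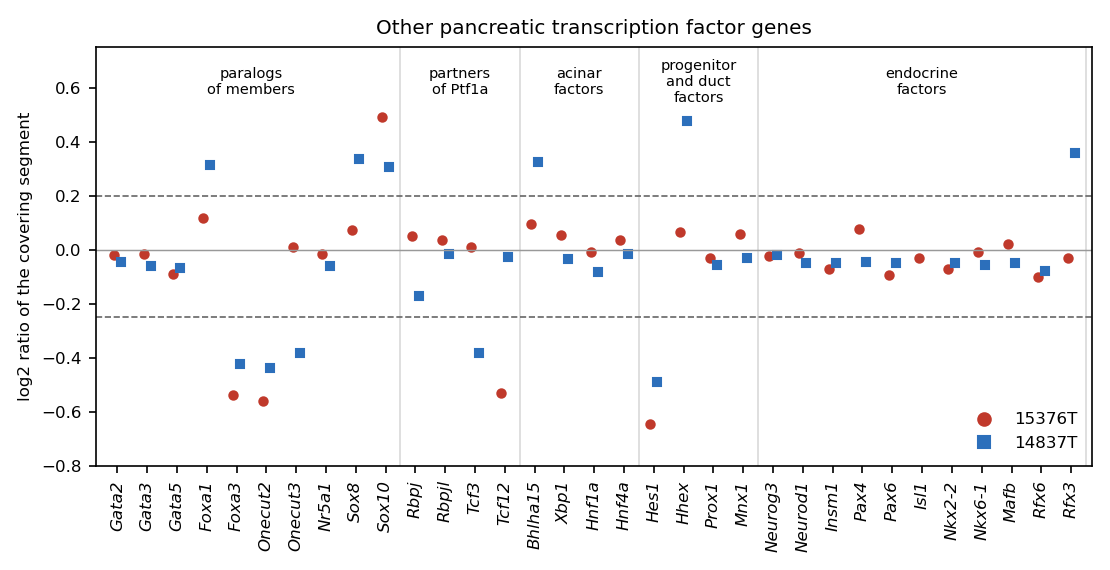
Log2 of the covering segment (vertical axis) for the other pancreatic transcription factor genes, grouped by role, with 1 gene of the list not drawn, in 15376T (circles) and 14837T (squares), with the thresholds of -0.25 and 0.2 as dashed lines. Losses lie among the paralogs, the partners of Ptf1a and the progenitor and duct factors, and 0 of the acinar and endocrine genes lie below the loss threshold. Of all genes, 30.0% were called lost in 15376T and 28.8% in 14837T.

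The genes of this list most like each member were sought by the distance between their pairs of log2 values, over 2 lines. A distance of 0 marks a shared segment, as for Pdx1 and Bhlha15, for Ptf1a with Gata3 and Nr5a1, for Foxa2 with Insm1 and Nkx2-2, and for Onecut1 and Tcf12. Gata4 was nearest to Foxa3 (0.016), Onecut2 and Hes1. Nr5a2 was nearest to Neurog3 (0.025). Gata6 had the farthest nearest gene, Tcf12 at 0.15, and the next, Foxa3, was at 0.52.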

How the data were processed

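Genomic DNA of 2 murine PDAC lines was captured and sequenced on an Illumina NovaSeq, 1 library each. For the capture, a NimbleGen exome library is given in the methods and an Agilent exome kit in the labels, both designed for human exons. The aligner, caller and reference are not given in the sources used here, and the submitters' processing notes name mm10. For each segment the authors deposited a log2 coverage ratio, a B-allele fraction, and copy numbers, bins and weights, each taken as a score. Read depth was deposited as a coverage signal without normalization. The weights were not used. Gene tables held 7960 and 4755 genes.

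Each gene was matched by name to its segment, with positions from RefSeq GRCm38.p6, which overlapped the gene tables for 99.2% and 99.6% of names. Fewer than 2 copies counted as lost and more as gained, over all autosomal names found in 1 segment. Shares of all genes were taken over 21056 names in 15376T, 21019 in 14837T and 20952 in both. Python 3.11.15, numpy 2.4.6, pandas 2.3.3 and matplotlib 3.10.9 were used. Only the matching of names to segments, the counting of calls and the spread were tested on simulated data. The genes named are the 8 members, the other factors not at 2 copies in either line with counts by role, the 3 nearest in log2 to each member, and the nearest genes beside a member. Other factors at 2 copies were named after their values were seen. An engineered allele and the values of 1 other factor are not reported here. Members and lists were chosen with earlier results of these data known. The alternatives tried were call thresholds of 0.3 and 0.5 in absolute log2, recentring, segment depth, names with a single reference position for the shares of all genes, a spread weighted by bins, and other comparison genes for the own depth.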

Additional observations from a re-analysis of the deposited data

How the results depend on the processing

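Of 93 alternatives over 43 results, 84 stayed on the same side of the call or within the spread. With log2 taken from the depth of the segment, Gata6 in 14837T became 0.23, Foxa2 in 14837T 0.064, Onecut1 in 15376T -0.42 and the Pdx1 difference -0.37, each with the direction of the text except Foxa2, which crossed 0. With calls at an absolute log2 of 0.5, 0 of the 8 genes were lost and 0 gained in 14837T, since Gata4 and Pdx1 fell short of it, and of the other factors 0 were gained in 15376T and 0 lost and 0 gained in 14837T. At 0.3 or recentred on the autosomal median no count moved by over 1.5 times. Comparison with genes of at least 5 bins, within 5 Mb, or, added after seeing the data, of the same bins within 2, left the own depth of the 3 listed genes below its neighbors in each setting, by 0.19 at the least for Gata6.

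No paired analysis was possible because there was 1 library for each line. Calls of 1 copy rest on coverage alone, with no error per segment, and how small a change could be seen was not tested. Weighted by bins, the spread was 0.0704 in 15376T and 0.0742 in 14837T.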
